A study of Rattus norvegicus with 9 samples.

Results

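The microRNAs (miRNAs) miR-218 and miR-153 were followed in small RNA libraries from rat hippocampus. Members were all rows of the deposited table named for miR-218 or miR-153, with any letter, precursor or arm ending, and 5 of the 633 listed miRNAs met this rule. Of these, 3 belong to miR-218 (miR-218a-5p, miR-218a-1-3p and miR-218a-2-3p) and 2 to miR-153 (miR-153-3p and miR-153-5p). The 9 libraries came from Sprague-Dawley rats, 3 from each of 3 treatment groups. Vehicle controls (VEH) were injected with saline for 14 days and then for 7 more days. Rats of the MK-801 group were given dizocilpine (MK-801), which blocks NMDA receptors for glutamate and serves as a rodent model of schizophrenia, at 0.2 mg/kg once a day for 14 days, with 7 days of saline after it. In the MK-801+CLO group the same MK-801 course was followed by 7 days at 10 mg/kg of a drug that its group name gives as CLO, clozapine, an atypical antipsychotic. All injections were intraperitoneal. The labels give the age as postnatal day 21 in 1 field and as 5 weeks at the start of treatment, after 14 days of habituation, in another. They mention 10 rats per group but do not tie libraries to single animals, so p-values here describe only how far these libraries vary, and that variation may be technical.

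A miRNA is cut from a hairpin-shaped precursor whose stem gives a 5p and a 3p strand. One of them, the guide, usually stays in the silencing complex and pairs with target mRNAs through its seed, bases 2 to 8, while the other, the passenger, is mostly degraded. Many miRNAs lie within introns of protein-coding host genes. MiR-218 lies in the Slit genes, whose products are secreted axon guidance ligands for Robo receptors, and is abundant in motor neurons and present in forebrain excitatory neurons. MiR-153 lies in genes of the Ptprn family, which encode membrane proteins of dense-core secretory vesicles, and is known for acting on mRNAs of the synaptic release machinery. In the RefSeq annotation of assembly GRCr8 the hairpin Mir218-1 lies within the span of Slit2, Mir218-2 within Slit3 and Mir153 within Ptprn2. The authors' processing notes name another assembly, Rnor_6.0, so no coordinates are given.

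The mature sequences show which strands can be told apart by sequencing, and the seeds, in capitals, show which could pair with the same target sites. All 5 were matched by name in the RefSeq table, and each was identical to the sequence the authors deposited.
miR-218a-5p: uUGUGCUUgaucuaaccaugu
miR-218a-1-3p: aAACAUGGuuccgucaagcac
miR-218a-2-3p: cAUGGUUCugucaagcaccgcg
miR-153-3p: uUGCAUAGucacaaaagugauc
miR-153-5p: gUCAUUUUugugauguugcagcu
All 5 members had different seeds, so no pair of them forms a seed family. Among the 633 listed miRNAs none shared bases 2 to 8 with a member. Over bases 2 to 7 there were 2 matches, named here after their values were seen: miR-322-3p with miR-218a-1-3p, and miR-448-3p, hosted by the serotonin receptor gene Htr2c, with miR-153-3p. MiR-448-3p averaged 22.6 CPM against 759 CPM for miR-153-3p, where CPM is a library's count scaled to a common total (counts per 1000000).
miR-448-3p: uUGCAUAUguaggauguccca

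The hairpins are shown because the guide miR-218a-5p is the same molecule from both of its precursors, and only the 3p strands tell the Slit2 and Slit3 copies apart. Capitals mark the mature strands, 5p first.
Mir218-1 (Slit2): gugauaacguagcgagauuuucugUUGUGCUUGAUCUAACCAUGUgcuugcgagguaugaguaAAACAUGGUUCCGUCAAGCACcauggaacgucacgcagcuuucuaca
Mir218-2 (Slit3): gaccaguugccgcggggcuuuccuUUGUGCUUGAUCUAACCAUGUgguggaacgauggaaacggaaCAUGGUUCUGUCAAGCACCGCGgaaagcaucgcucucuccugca
Mir153 (Ptprn2): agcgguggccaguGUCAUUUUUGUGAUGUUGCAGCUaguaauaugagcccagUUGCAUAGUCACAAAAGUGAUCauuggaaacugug
The annotated miR-218a-2-3p starts 3 bases further into the arm than miR-218a-1-3p. Over the 18 bases in which the pair overlap, 17 are identical, and the difference is C12U, counted from the 5′ end of miR-218a-1-3p. Because the 3p strands are so alike, their counts are uncertain where the authors' counting could have split reads between them.

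Total miRNA counts ran from 10665718 to 18284905 per library, and the 5 members together took 0.248% to 0.360% of them. All 5 neuron-enriched marker miRNAs (miR-124-3p, miR-128-3p, miR-9a-5p, miR-138-5p and miR-137-3p) were present in every library, with a summed level of 119667 to 147437 CPM. The largest part of the sum was miR-9a-5p (mean 84597 CPM), while miR-124-3p averaged 3317 CPM and miR-137-3p 310 CPM. Bulk libraries do not show which cells held a miRNA, and fewer cells of a type cannot be told apart from less RNA per cell. Of 5 Hox-cluster miRNAs of hindbrain and spinal cord, 4 were at most 0.255 CPM in any library. The fifth, miR-10a-5p, ran from 17.3 CPM to 448 CPM. No library pair agreed within sampling noise (lowest chi-square per degree of freedom 162), so none were merged as 1 library deposited more than once. The check cannot tell repeat preparations of 1 RNA pool from different animals.

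The guide strands held nearly all member counts. MiR-218a-5p made up 74.7% of them, averaged 2287 CPM and ranked 48 of 633 by mean level. MiR-153-3p made up 24.3%, averaged 759 CPM and ranked 82. The passenger strands were far lower, with miR-153-5p at 23.2 CPM (rank 267), miR-218a-2-3p at 4.03 CPM (rank 375) and miR-218a-1-3p at 3.22 CPM (rank 391). Such ranks compare counts, and small RNA libraries do not capture every sequence equally well. All 5 had enough counts to be among the 469 miRNAs tested.

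MiR-218a-5p stood at 2343, 2230 and 2801 CPM in VEH replicates 1, 2 and 3. It was at 2731, 2387 and 2121 CPM in MK-801, and at 2300, 1881 and 1790 CPM in MK-801+CLO. VEH replicate 3 and MK-801 replicate 1 were the highest libraries, and replicates 2 and 3 of MK-801+CLO lay below all others, while its replicate 1 lay within the range of both other groups. Group means were in the order VEH (2458 ± 302 CPM, SD, n = 3), MK-801 (2413 ± 306 CPM) and MK-801+CLO (1990 ± 272 CPM), and neighbours in this order had overlapping ranges.

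MiR-153-3p, the guide of the Ptprn2 hairpin, stood at 620, 805 and 619 CPM in VEH replicates 1, 2 and 3. It was at 839, 867 and 685 CPM in MK-801, and at 880, 576 and 939 CPM in MK-801+CLO. The MK-801+CLO group held both the highest library (replicate 3) and the lowest (replicate 2), and all 3 groups overlapped. The VEH mean was 681 ± 107 CPM, that of MK-801 was 797 ± 98.1 CPM and that of MK-801+CLO was 799 ± 195 CPM (SD, n = 3), and neighbours in this order had overlapping ranges.

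The passenger strands rest on few counts. MiR-218a-1-3p, from the Slit2 copy, had 31, 75 and 72 counts in VEH, 54, 62 and 35 in MK-801, and 42, 25 and 22 in MK-801+CLO. In CPM the VEH libraries alone ran from 1.86 to 6.37, wider than the whole range of the 6 drug-treated libraries (1.62 to 3.64). MiR-218a-2-3p, from the Slit3 copy, had 71, 45 and 86 counts in VEH, 78, 75 and 53 in MK-801, and 55, 39 and 32 in MK-801+CLO. Its lowest library was MK-801+CLO replicate 3 at 2.36 CPM and its highest MK-801 replicate 1 at 5.24 CPM. MiR-153-5p levels in CPM were 26.1, 26.2 and 16.6 for VEH, and 19.2, 26.8 and 17.9 for MK-801. With clozapine they were 28.9, 18.2 and 28.8. Each group held at least 1 library under 20 CPM and 1 over 25 CPM, so the groups overlapped for each of these 3 strands as well.

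**Figure D1:**
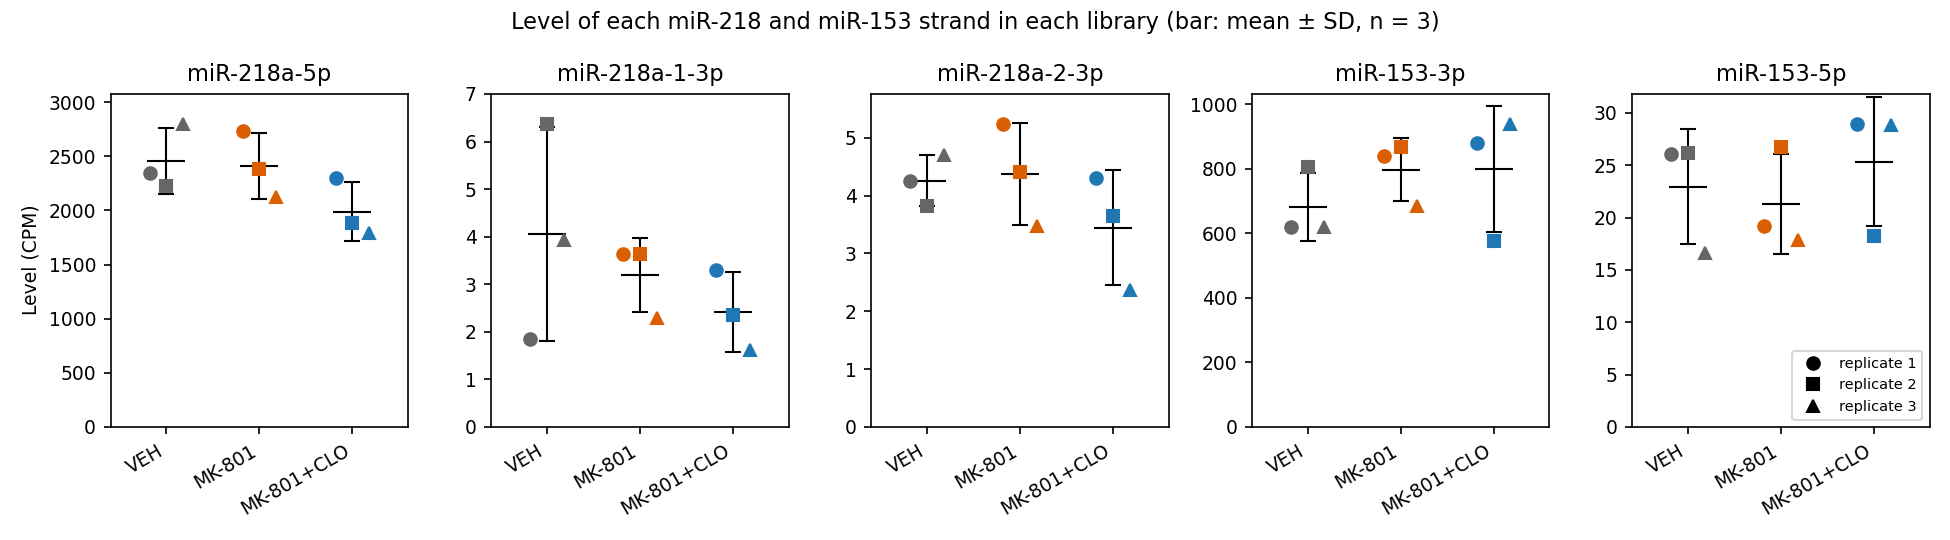
Level of each strand in CPM (linear axes from 0) in every library, by group. Coloured points are libraries with a symbol for the replicate number, and black bars give the group mean ± SD (n = 3). For miR-218a-5p MK-801+CLO replicates 2 and 3 are the lowest libraries, at 1881 and 1790 CPM, and for miR-153-3p the MK-801+CLO libraries spread from 576 to 939 CPM.

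Since the guide of miR-218a cannot be assigned to a hairpin, the 3p strands were used to set the Slit2 copy beside the Slit3 copy. Over all libraries miR-218a-1-3p had 418 counts and miR-218a-2-3p had 534. The share of miR-218a-1-3p in their sum was 30.4% (95% Wilson interval 22.3% to 39.9%) in VEH replicate 1, 62.5% (95% Wilson interval 53.6% to 70.6%) in VEH replicate 2 and 45.6% (95% Wilson interval 38.0% to 53.3%) in VEH replicate 3. The first 2 of these intervals do not overlap, although both libraries are vehicle controls. In the 6 other libraries the share ran from 39.8% to 45.3% in MK-801 and from 39.1% to 43.3% in MK-801+CLO. Their Wilson intervals were far wider, for example 28.1% to 51.3% in MK-801+CLO replicate 2, so this closeness lies within counting error. Group means were 46.2% ± 16.1 in VEH, 42.0% ± 2.91 in MK-801 and 41.0% ± 2.12 in MK-801+CLO (SD, n = 3), so any difference between groups was smaller than the spread within VEH. These intervals cover counting error only. VEH replicate 2 was also the library with the highest level of miR-10a-5p, 448 CPM, a listed Hox-cluster miRNA of hindbrain and spinal cord. The others on that list were at most 0.255 CPM in any library. The part of other tissue in the strand share of VEH replicate 2 was not tested.

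Strand preference was opposite in the 2 families and strong in both. MiR-218a-5p exceeded the sum of both its 3p strands by 219-fold to 449-fold in single libraries, with a mean ratio of 309 ± 83.1 in VEH, 324 ± 38.2 in MK-801 and 355 ± 81.9 in MK-801+CLO (SD, n = 3). MiR-153-3p exceeded miR-153-5p by 23.8-fold to 43.7-fold, so its passenger strand lay closer to its guide in level. MiR-153-5p formed 4.03%, 3.15% and 2.62% of the counts of both miR-153 strands in VEH, 2.24%, 2.99% and 2.54% in MK-801, and 3.18%, 3.06% and 2.98% in MK-801+CLO. The highest and the lowest of these shares have 95% Wilson intervals that do not overlap (3.68% to 4.42% in VEH replicate 1 and 2.00% to 2.51% in MK-801 replicate 1). The groups overlapped, and the 3 MK-801+CLO libraries were the closest together, with an SD of 0.101 percentage points against 0.712 in VEH and 0.377 in MK-801. The 95% Wilson intervals of these 3 libraries were 2.88% to 3.52%, 2.66% to 3.51% and 2.70% to 3.28%. Their closeness therefore lies within counting error.

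**Figure D2:**
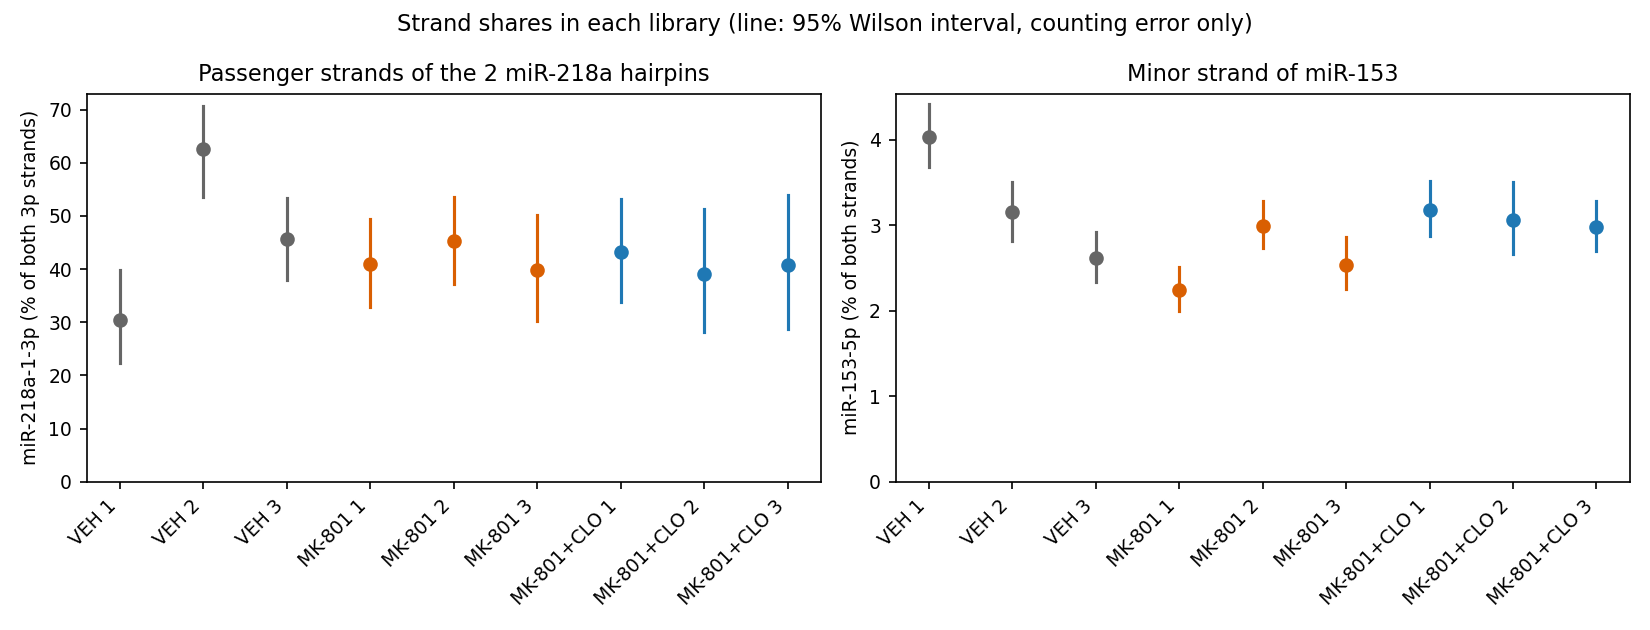
Left, share of miR-218a-1-3p in the counts of both miR-218a 3p strands, and right, share of miR-153-5p in the counts of both miR-153 strands, in percent for each library (axes from 0). Points are libraries coloured by group and lines are 95% Wilson intervals. VEH replicates 1 and 2 part at 30.4% and 62.5% on the left, while the other 7 libraries lie between 39.1% and 45.6%.

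The question of which miRNAs differ after the NMDA receptor blocker was addressed by comparing MK-801 with VEH libraries. None of the 5 members passed the edgeR test at an adjusted p of 0.05, against a background of 0% (0 of 469) of all miRNAs tested. MiR-218a-5p was at nearly the same level in both groups, with a log2 fold change of -0.0048 ± 0.13 (SE; 95% interval -0.29 to 0.28; edgeR adjusted p = 0.982). The interval leaves room for differences up to about those bounds in either direction. MiR-153-3p was at 0.25 ± 0.18 (95% interval -0.15 to 0.65; edgeR adjusted p = 0.824). The passenger strands were at -0.30 ± 0.40 for miR-218a-1-3p, 0.051 ± 0.23 for miR-218a-2-3p and -0.089 ± 0.23 for miR-153-5p. Of the members, 2 lay above and 3 below VEH, and over all 469 miRNAs 46.5% lay above. The median log2 fold change of the members was -0.0048, the value of miR-218a-5p itself, against -0.018 over all miRNAs. Members include strands of the same hairpins, so they are not all separate miRNAs and their median does not describe a family-wide shift. At an unadjusted p under 0.05 edgeR had 0 members, against 24 of all miRNAs (5.12%). DESeq2 called 1 miRNA and limma voom 0, and no member was among them.

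The question of what differs when clozapine follows was addressed by comparing MK-801+CLO with MK-801 libraries. No member passed the adjusted test, as for all miRNAs (0%). MiR-218a-5p was at 1990 CPM against 2413 CPM, a log2 fold change of -0.24 ± 0.13 (95% interval -0.53 to 0.047; edgeR adjusted p = 0.641). Without MK-801 replicate 1, its highest library in this comparison, the value was -0.126. It was -0.359 with upper-quartile factors, -0.284 at 10 CPM or more and -0.332 without MK-801+CLO replicate 1. In these fits the edgeR unadjusted p was 0.0253, 0.038 and 0.0397, and the edgeR adjusted p was 0.449, 0.55 and 0.412. Of all miRNAs 48, 27 and 51 had an unadjusted p under 0.05 in them, against 39 in the main fit. The fit at 10 CPM or more tested fewer miRNAs than the others, so its count is not comparable with theirs. Both passenger strands of miR-218a were on the same side, miR-218a-1-3p at -0.36 ± 0.42 and miR-218a-2-3p at -0.31 ± 0.24. The miR-153 strands were on the other side, miR-153-3p at 0.043 ± 0.18 and miR-153-5p at 0.30 ± 0.23. The sign of miR-153-3p turned with upper-quartile factors (-0.0775), which moved the median of all miRNAs from -0.0044 to -0.116. Of the members 2 lay above and 3 below MK-801, and over all miRNAs 48.8% lay above. The member median of -0.24 was again the value of miR-218a-5p itself. When MK-801+CLO replicate 3 was left out, miR-218a-1-3p was at -0.154, miR-218a-2-3p at -0.112 and miR-153-5p at 0.162. MiR-218a-2-3p was at -0.144 without MK-801 replicate 1. Leaving out other single libraries gave values down to -0.629 for miR-218a-1-3p and -0.487 for miR-218a-2-3p (both without MK-801+CLO replicate 1), and up to 0.474 for miR-153-5p (without MK-801+CLO replicate 2). At an unadjusted p under 0.05 the main edgeR fit had 0 members, against 39 of all miRNAs (8.32%). DESeq2 called 2 miRNAs and limma voom 0, with no member among them.

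Finally, the complete drug course was compared with saline alone, in MK-801+CLO against VEH. Its libraries also serve the other comparisons, so its values are not independent of theirs. The 3 miR-218 strands lay below VEH and both miR-153 strands above, and none passed the adjusted test (0% of all miRNAs did). MiR-218a-5p was at a log2 fold change of -0.25 ± 0.13 (95% interval -0.54 to 0.042; edgeR adjusted p = 0.390), and at -0.143 without VEH replicate 3, its highest library. It was at -0.334 without MK-801+CLO replicate 1 (edgeR unadjusted p = 0.0389, adjusted p = 0.254). With library totals it was at -0.305 (edgeR unadjusted p = 0.0489, adjusted p = 0.359). Of all miRNAs 84 and 63 had an unadjusted p under 0.05 in these fits, against 70 in the main fit. MiR-153-3p was at 0.29 ± 0.18 (95% interval -0.11 to 0.69; edgeR adjusted p = 0.476). MiR-218a-1-3p had the largest value of the members, -0.66 ± 0.42 (95% interval -1.59 to 0.27; edgeR adjusted p = 0.489). It was at -0.210 without VEH replicate 2, and at -1.02 without VEH replicate 1 (edgeR unadjusted p = 0.0144, adjusted p = 0.226). In the fit without VEH replicate 1, 66 of all miRNAs had an unadjusted p under 0.05. MiR-218a-2-3p was at -0.26 ± 0.24, and at -0.0819 without MK-801+CLO replicate 3. MiR-153-5p was at 0.21 ± 0.23, and at 0.0178 without VEH replicate 3 and 0.0573 without MK-801+CLO replicate 3. The median of the members was -0.25, which is the value of miR-218a-5p itself. Over all miRNAs the median was 0.0034, with 50.1% above VEH. At an unadjusted p under 0.05 the main edgeR fit had 0 members, against 70 of all miRNAs (14.9%). DESeq2 called 11 miRNAs and limma voom 0, with no member among them.

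Single MK-801+CLO libraries moved miR-153-3p in opposite directions. Without replicate 2, the lowest library, the log2 fold change against VEH was 0.456 (unadjusted p = 0.0103, edgeR adjusted p = 0.153), and without replicate 3, the highest library, it was 0.111. Against MK-801 the corresponding values were 0.225 and -0.119. In the edgeR fit against VEH without MK-801+CLO replicate 2, 78 of all miRNAs had an unadjusted p under 0.05 and 7 passed the adjusted threshold. In no comparison did the CPM of any member separate the groups without overlap. Such separation in either direction was seen for 13.9% of all tested miRNAs in MK-801 against VEH, 11.5% in MK-801+CLO against MK-801 and 17.5% in MK-801+CLO against VEH.

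**Figure D3:**
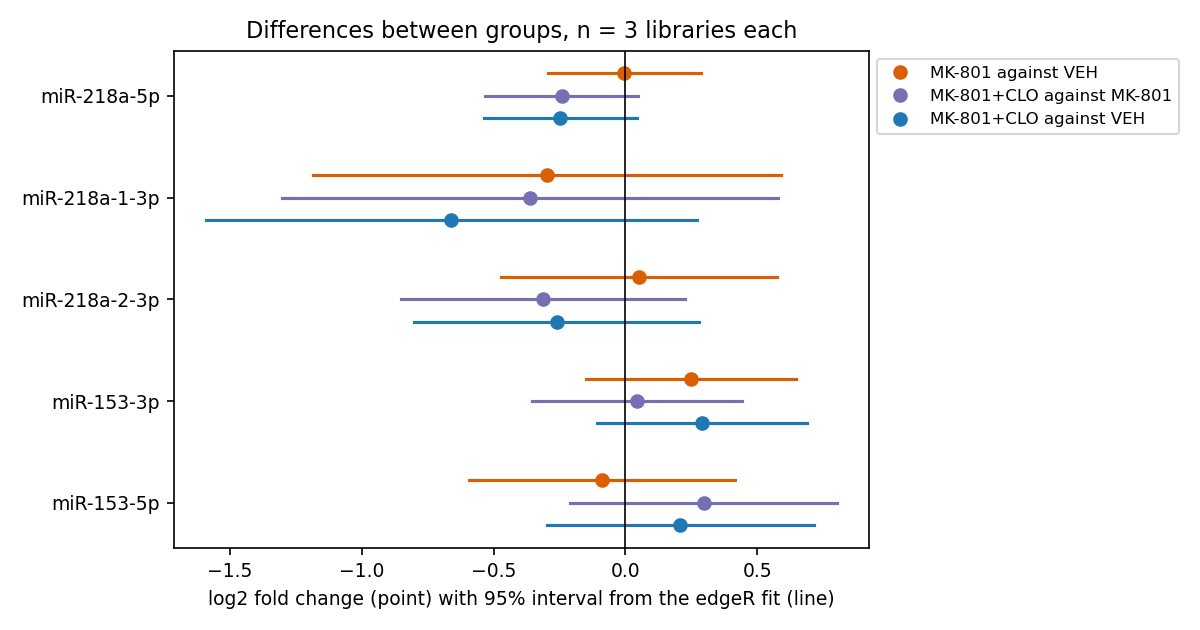
Log2 fold change (points) with its 95% interval from the edgeR fit (lines) for each strand in the 3 comparisons, 3 libraries on each side. All 15 intervals include 0, and those of miR-218a-1-3p are the widest, reaching -1.59 in MK-801+CLO against VEH.

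**Figure D4:**
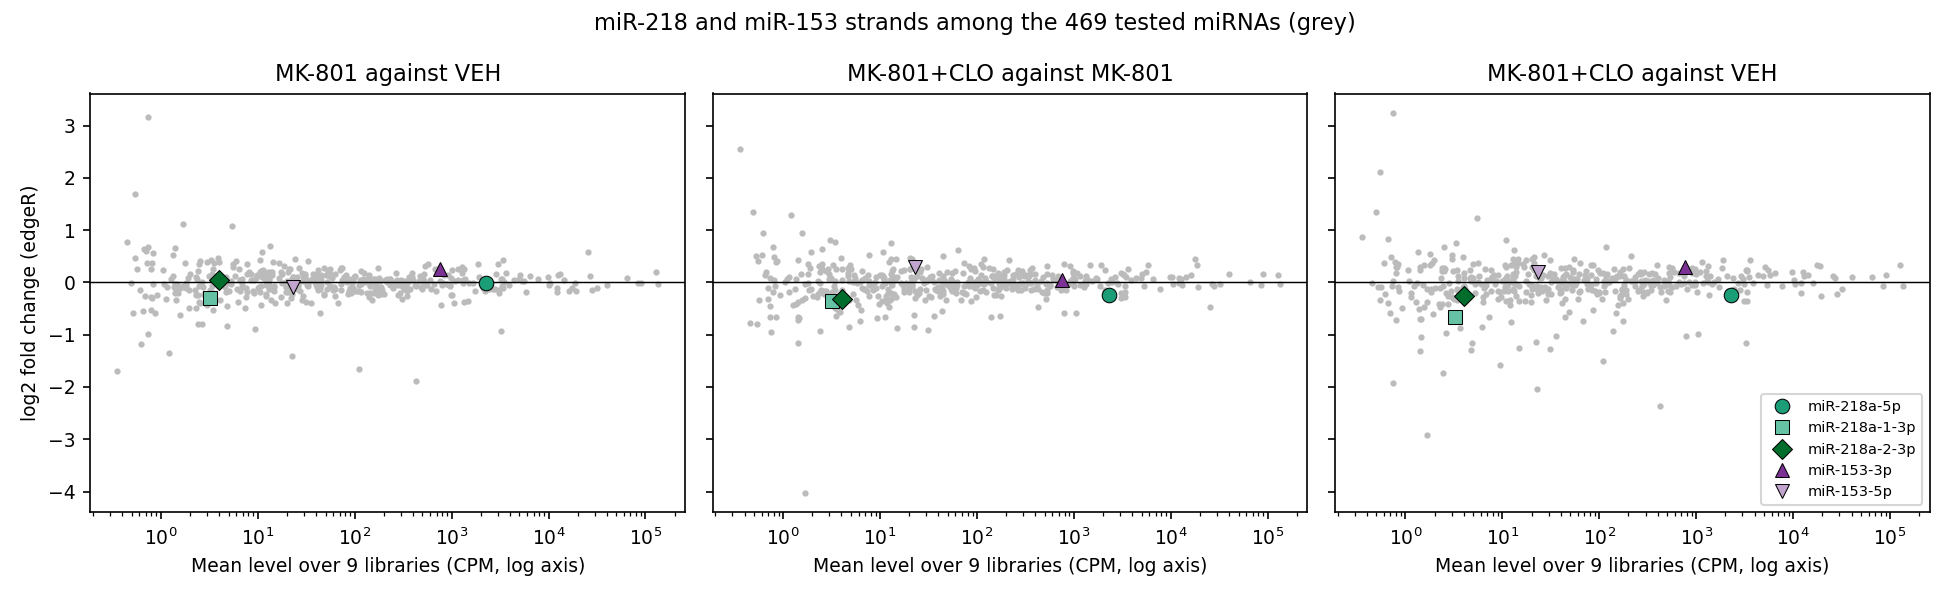
Log2 fold change (linear axis) against the mean level over 9 libraries in CPM (log axis) for the 469 tested miRNAs in grey, with the 5 strands marked. The guides miR-218a-5p and miR-153-3p lie at 2287 and 759 CPM and within 0.3 of 0 in each comparison, among many other miRNAs of like level.

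The libraries also differed within groups by an amount that varied among the members. On the log2 scale of TMM-scaled CPM the spread within groups (pooled SD over the 3 groups) was 0.171 for miR-218a-5p and 0.259 for miR-153-3p. The median of the 333 tested miRNAs at 10 CPM or more was 0.159, and 181 of them had a smaller spread than miR-218a-5p and 260 a smaller spread than miR-153-3p. MiR-153-3p was thus among the more variable miRNAs of its abundance class. For the passenger strands the spread was 0.334 (miR-153-5p), 0.295 (miR-218a-2-3p) and 0.584 (miR-218a-1-3p), against a median of 0.196 over all 469.

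Markers of other cells differed between the same libraries. The summed level of 6 choroid plexus and ependymal miRNAs, all present (led by miR-204-5p), was 3966 to 12311 CPM in VEH, 3635 to 4471 CPM in MK-801 and 2556 to 3843 CPM in MK-801+CLO. VEH replicate 3 held both the top of that range and the highest level of miR-218a-5p, whereas MK-801 replicate 1, the second highest for miR-218a-5p at 2731 CPM, held 3635 CPM of these markers. The 4 vascular miRNAs, led by miR-143-3p (mean 18810 CPM), summed to 21837 to 25137 CPM in VEH and 22711 to 24163 CPM in MK-801. In MK-801+CLO they summed to 25681 to 30246 CPM, without overlap with either other group. The 3 oligodendrocyte miRNAs summed to 3686 to 4910 CPM, 3811 to 6184 CPM and 3738 to 5925 CPM in the same order of groups, and MK-801+CLO replicate 2, the lowest library for miR-153-3p, held the 5925 CPM. Sums were 3058 to 3550 CPM, 2700 to 3076 CPM and 2959 to 3254 CPM for 3 red blood cell miRNAs. These sums were nearly all miR-486 (mean 3076 CPM), while miR-451-5p averaged 25.2 CPM and miR-144-3p 4.71 CPM. For 6 microglial and leukocyte miRNAs sums were 801 to 957 CPM, 804 to 837 CPM and 912 to 1131 CPM. Most of each was miR-150-5p (mean 790 CPM), and miR-223-3p, typical of myeloid cells, was at most 2.90 CPM. Besides the vascular sums, choroid plexus and ependymal sums did not overlap between VEH and MK-801+CLO. Microglial and leukocyte sums did not overlap between MK-801 and MK-801+CLO. Of all tested miRNAs, 11.5% separated without overlap in MK-801+CLO against MK-801 and 17.5% in MK-801+CLO against VEH. The part of the cells marked by these lists in the values of miR-218a-5p and miR-153-3p was not tested.

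Other miRNAs enriched in neurons were set beside the members with a list of 20, all of them tested. The list holds different strands of miR-124, miR-9a and miR-129, so its entries are not all separate miRNAs. In MK-801 against VEH 11 of the 20 lay above, against 46.5% of all miRNAs, and 9 below. The list median log2 fold change was 0.021, against -0.018 over all miRNAs. With upper-quartile factors, which moved the median of all miRNAs to 0.074, 15 of the 20 lay above. The ends of the list were miR-138-5p of dendritic spines (0.58 ± 0.18, edgeR adjusted p = 0.588) and miR-129-2-3p (-0.24 ± 0.19, edgeR adjusted p = 0.824). In MK-801+CLO against MK-801 14 lay above, against 48.8% of all miRNAs, and 6 below (median 0.15, against -0.0044 over all). With upper-quartile factors 13 of the list lay above. Its ends were miR-383-5p (0.58 ± 0.27, edgeR adjusted p = 0.573) and miR-138-5p (-0.47 ± 0.18, edgeR adjusted p = 0.526). In MK-801+CLO against VEH 16 lay above, against 50.1% of all miRNAs, and 4 below (median 0.15, against 0.0034 over all). With library totals 13 of the list lay above and 7 below. Its ends were miR-383-5p (0.80 ± 0.27, edgeR adjusted p = 0.212) and miR-137-3p (-0.19 ± 0.13, edgeR adjusted p = 0.532), the miRNA of a schizophrenia risk locus. No list member passed the adjusted edgeR test in any of the 3 comparisons, and 1, 3 and 6 of 20 had an unadjusted p under 0.05, against 5.12%, 8.32% and 14.9% of all miRNAs. In both clozapine comparisons miR-153-3p lay above 0, as did most of this list, and miR-218a-5p below, though the sign of miR-153-3p against MK-801 turned as given above.

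Single libraries weighed on the values of this list. In MK-801 against VEH it had no majority side, with 10 of 20 above and 10 below, with library totals and without VEH replicate 1, VEH replicate 3 or MK-801 replicate 1. Without MK-801+CLO replicate 3 the list median was 0.0794 against MK-801 and 0.0479 against VEH, and without MK-801+CLO replicate 2 it was 0.271 and 0.210. The 6 list members at an unadjusted p under 0.05 in MK-801+CLO against VEH became 0 without MK-801+CLO replicate 3, 1 without VEH replicate 3, 2 without MK-801+CLO replicate 1 and 8 without MK-801+CLO replicate 2. Over all miRNAs the count moved too, from 70 to 34, 38, 84 and 78 in the same order. The 3 list members against MK-801 became 1 without MK-801 replicate 1 or MK-801+CLO replicate 1, 2 without MK-801 replicate 3 or MK-801+CLO replicate 3, 5 without MK-801 replicate 2, and 9 when MK-801+CLO replicate 2 was left out. Over all miRNAs 39 became 23, 51, 33, 18, 37 and 52 in that order. In edgeR 1 list member passed the adjusted threshold in MK-801 against VEH without MK-801 replicate 2, and 1 in each clozapine comparison without MK-801+CLO replicate 2. Of all miRNAs 1 passed in the first of these fits, 2 in that against MK-801 and 7 in that against VEH.

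Of the 330 other tested miRNAs at 10 CPM or more, those whose log2 levels most resembled each guide over the 9 libraries were ranked by Pearson's r. The values are descriptions, chosen as the highest of 330, and the points share libraries and scaling. For miR-218a-5p they were miR-221-3p (r = 0.905), miR-672-5p (r = 0.900), miR-326-3p (r = 0.874), miR-187-3p (r = 0.845) and miR-205 (r = 0.823). Like miR-218a-5p, all 5 had their lowest group mean in MK-801+CLO, for example miR-221-3p with 3716 CPM in VEH, 3493 CPM in MK-801 and 2806 CPM in MK-801+CLO. This is no separate result, since all 5 were picked for resembling miR-218a-5p over the same libraries. For miR-153-3p the most similar were miR-411-5p (r = 0.932) of the imprinted Dlk1-Dio3 region, miR-374-3p (r = 0.888), miR-124-3p (r = 0.887), miR-139-5p (r = 0.880) and miR-135b-5p (r = 0.862). MiR-124-3p, the miRNA most typical of neurons, and miR-139-5p also stand in the neuron-enriched list, which held 19 of the 330 candidates. None of the 5 most like miR-218a-5p stands in that list. The miRNAs most like miR-153-3p were also picked for likeness, so their place in the list is no separate result. Spearman's rho ran from 0.750 to 0.933 for the first set and from 0.833 to 0.933 for the second.

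**Figure D5:**
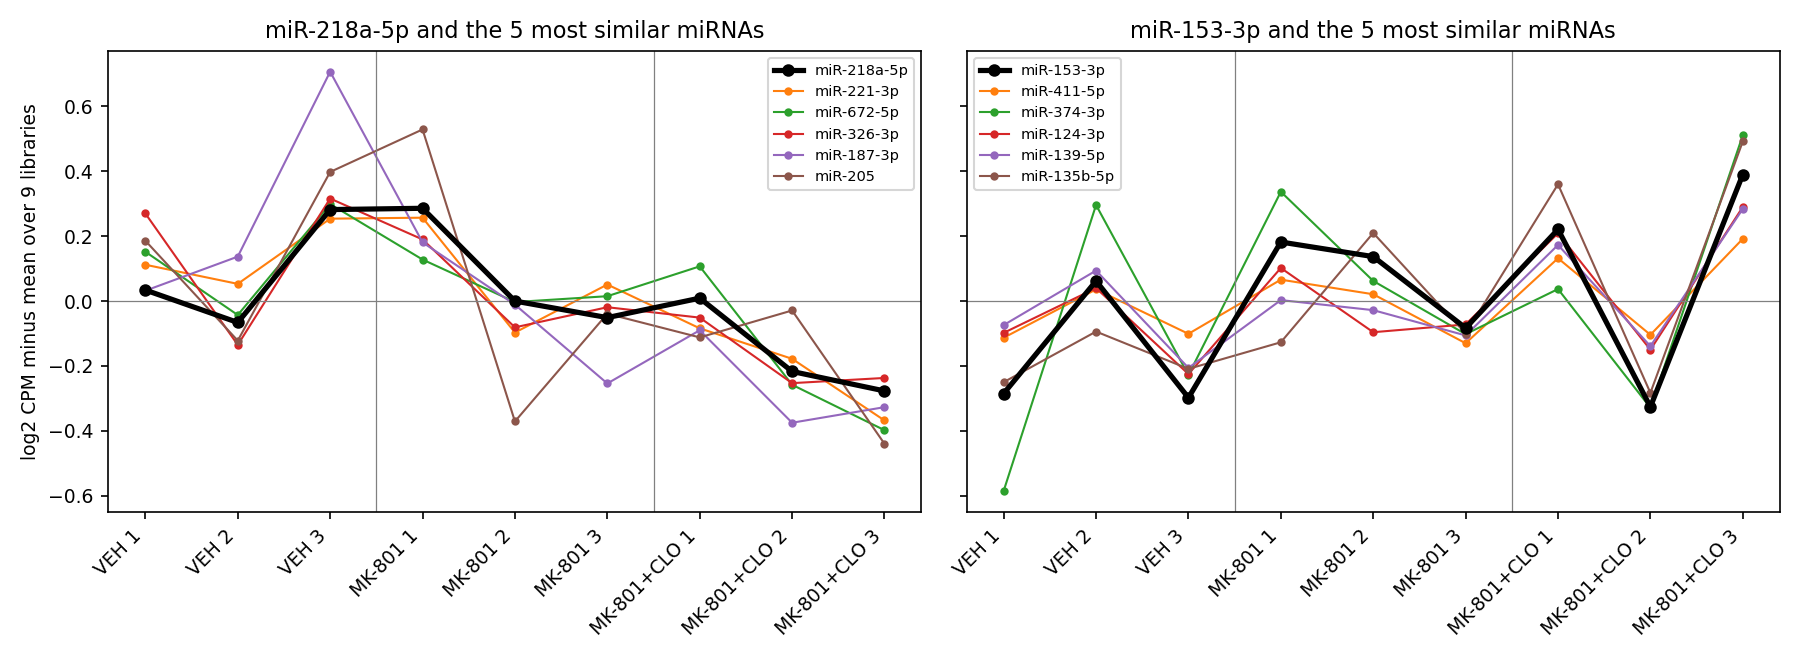
Log2 CPM minus its mean over the 9 libraries for miR-218a-5p (left) and miR-153-3p (right), in black, with the 5 most similar miRNAs in colour. Lines only join the points of 1 miRNA, since libraries have no order, and grey vertical lines part the groups. On the right MK-801+CLO replicate 2 lies low between replicates 1 and 3 for miR-153-3p and for each of its 5 most similar miRNAs. These were picked for resembling miR-153-3p over the same libraries.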

How the data were processed

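The authors deposited 1 table with whole-number counts per mature miRNA and library and values headed TPM. The deposited TPM values equal count over library total (largest relative difference 0.000473%), with no length term, and were treated as CPM. Cutadapt 1.14, Bowtie, DESeq and build Rnor_6.0 are named without roles, per the submitters' processing notes; the handling of reads with several matches is not stated there. Blank lines (21) were dropped and 1 split name was rejoined.

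Counts were fitted with edgeR 4.0.16 in R 4.3.3 (filterByExpr, TMM, glmQLFit, glmQLFTest; 1 mean per group, all 9 libraries; Benjamini-Hochberg over 469 miRNAs, threshold 0.05). SE is the absolute log2 fold change over the square root of F, and 95% intervals use the fit's degrees of freedom. A count of 0 allows 0.164 to 0.281 CPM (3 counts). Intervals of shares are Wilson intervals (SciPy 1.17.1). The code was tested on simulated counts. Alternatives were DESeq2 1.42.0, limma 3.58.1 voom, other scalings and filters, a replicate block, fits on 2 groups alone, and leaving out libraries 1 at a time.

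Named miRNAs were the members, a list of 20 neuron-enriched miRNAs (by counts, and the highest and lowest at 10 CPM or more), the 5 most similar to each guide, and cell type markers. Members and lists were chosen with earlier results of these data known. MiR-218b was not analysed here. Mature and hairpin sequences are RefSeq's, build GRCr8.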

Additional observations from a re-analysis of the deposited data

How the results depend on the processing

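None of the 15 member values (5 strands in 3 comparisons) passed the adjusted threshold under any alternative fit. Together they were refitted 219 times, with several strands sharing each fit. Of the 15 values, 10 kept their sign throughout, and for the 5 others 15 of the refitted values had the opposite sign. MiR-218a-5p in MK-801 against VEH was at 0.0874 with upper-quartile factors, 0.000425 without a filter and 0.0215 at 10 CPM or more, and miR-153-3p in MK-801+CLO against MK-801 was at -0.0775 with upper-quartile factors. Leaving out single libraries gave -0.118 to 0.101 for miR-218a-5p, -0.277 to 0.00815 for miR-153-5p, -0.674 to 0.149 for miR-218a-1-3p and -0.115 to 0.175 for miR-218a-2-3p in MK-801 against VEH, and -0.119 to 0.225 for miR-153-3p in MK-801+CLO against MK-801. The cause was not tested. The number of all miRNAs past the threshold was 0 in each comparison and 1, 2 and 11 with DESeq2 (MK-801 against VEH, MK-801+CLO against MK-801, MK-801+CLO against VEH). Without single libraries it ran from 0 to 1, 0 to 2 and 0 to 7, with the highest values without MK-801 replicate 2 in the first and without MK-801+CLO replicate 2 in the others. With the replicate number as a block it was 0, 0 and 0 and changed no call, and miR-218a-5p in MK-801+CLO against VEH was at -0.252. The labels state no pairing of replicate numbers. The deviations of same-numbered libraries correlated at -0.345 to 0.129, and not every library correlated best with its own number. With so few libraries this check cannot exclude a shared batch. With library totals 4 of the 5 miRNAs most like miR-218a-5p and 5 of the 5 most like miR-153-3p were the same. Summing miR-218a-5p with miR-218b was not run. The passenger strands of miR-218a, at 22 to 86 counts per library, are limited by depth, and a filter at 10 CPM left them out.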

Other observations

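The ratio of the guides, miR-218a-5p over miR-153-3p, was 3.78, 2.77 and 4.52 in VEH replicates 1, 2 and 3, 3.25, 2.75 and 3.10 in MK-801, and 2.61, 3.26 and 1.91 in MK-801+CLO. Means were 3.69 ± 0.878, 3.03 ± 0.257 and 2.59 ± 0.675 (SD, n = 3), and the groups overlapped. A ratio within a library does not depend on how libraries are scaled. The difference between the groups was not tested.

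MiR-448-3p, which shares bases 2 to 7 with miR-153-3p, differed from it in pattern. Its levels in CPM were 25.5, 17.8 and 83.1 for VEH, and 11.8, 24.4 and 11.2 for MK-801. With clozapine they were 12.2, 11.3 and 6.27. Its highest library, VEH replicate 3, was also the highest for choroid plexus and ependymal miRNAs, while miR-153-3p was at 619 CPM there, near its lowest level of 576 CPM.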
